A study of Mus musculus with 192 samples.

Results

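Mouse dendritic cells stimulated with PAM, HMW and cGAMP together were compared with the same cells given each of the 3 pairs of those ligands, so that each comparison reads what the third ligand added to a pair. The libraries were chosen by their labels and not by any measured value. They were 3 libraries each of PAM + HMW + cGAMP, PAM + HMW, PAM + cGAMP and HMW + cGAMP, which are 12 of the 192 libraries of the series. RNA was sequenced from dendritic cells, which present antigen to T cells, that had been grown in GM-CSF from bone marrow of female C57BL/6J mice aged 6 to 8 weeks. In every group 100000 cells per well were stimulated for 6 hours. The groups Ctrl, PAM, HMW and cGAMP, with 3 libraries each, were used for the smaller steps from no ligand to a pair. The labels give cGAMP as 3',3'-cGAMP, and PAM and HMW are named here as the labels name them. The labels do not say whether replicate libraries came from separate cultures or animals. The p-values measure the spread between replicate libraries, estimated over all 64 groups of the series, and that spread may be technical.

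Pattern recognition receptors detect microbial or misplaced nucleic acids and microbial surface components. Cyclic dinucleotides such as cGAMP bind the adaptor STING, which through the kinase TBK1 and the transcription factor IRF3 leads to interferon beta. Secreted interferon then acts back on the cells and induces a wide set of antiviral genes. Other receptors act mainly through NF-kappaB, which drives genes of inflammatory cytokines such as Tnf, Il6 and Il1b and of chemokines that attract neutrophils. Dendritic cells express both programmes, together with costimulatory and antigen presentation genes.

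The 12 libraries held 128242 to 338983 counts of unique molecular identifiers, and the triplet libraries lay in the upper range, with 211732, 225387 and 338983. Levels are given as CPM, counts scaled to a common library size after TMM, for replicates 1, 2 and 3 in that order. The scaling factors were 0.844 to 0.887 in the triplet and 0.866 to 0.918 in PAM + cGAMP, against 1.04 to 1.07 in the other pairs, so the scaling moved with 2 of the 3 comparisons. Of the 12 listed markers of dendritic cells and macrophages 11 were in the table, all 11 had counts, and they summed to 15857 to 19896 CPM. Neutrophil markers summed to 829 to 1134 CPM in the triplet, 796 to 1036 in PAM + HMW, 768 to 984 in PAM + cGAMP and 647 to 753 in HMW + cGAMP, with 8 of 9 above 0 and Elane at 0. Markers of B cells, T and NK cells and mast cells stayed at or under 25.9 CPM in sum, and the 7 erythroid markers were at 0. The plasmacytoid dendritic cell list summed to 710 to 964 CPM in the triplet and 590 to 674 in PAM + HMW. It summed to 772 to 847 in PAM + cGAMP and 672 to 800 in HMW + cGAMP. Its defining markers Siglech and Klk1 were at 0. The sums were lowest in PAM + HMW, the pair without cGAMP, whose range just overlapped that of HMW + cGAMP. The wells are bulk samples, in which fewer cells of a type and less RNA per cell cannot be told apart.

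The 3 comparisons differed in how many genes they called. Adding cGAMP to PAM + HMW raised 446 genes (9.45% of the 4720 tested) and lowered 206 (4.36%). Adding PAM to HMW + cGAMP raised 263 genes (5.57%) and lowered 179 (3.79%). Adding HMW to PAM + cGAMP changed 0 genes (0.0%). A gene was called changed at an adjusted p under 0.05 in edgeR's quasi-likelihood test with a log2 fold change of at least 1 in size. These comparisons share the triplet libraries and are not independent of each other. Scaling by library size alone, which shifted the all-gene median to -0.30 for cGAMP and -0.27 for PAM on the log2 scale, gave 300 higher and 454 lower for cGAMP and 166 higher and 373 lower for PAM, so the balance between rises and falls depends on the scaling. The root mean square log2 fold change over all tested genes was 0.904 for cGAMP, 0.822 for PAM and 0.517 for HMW.

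**Figure D1:**
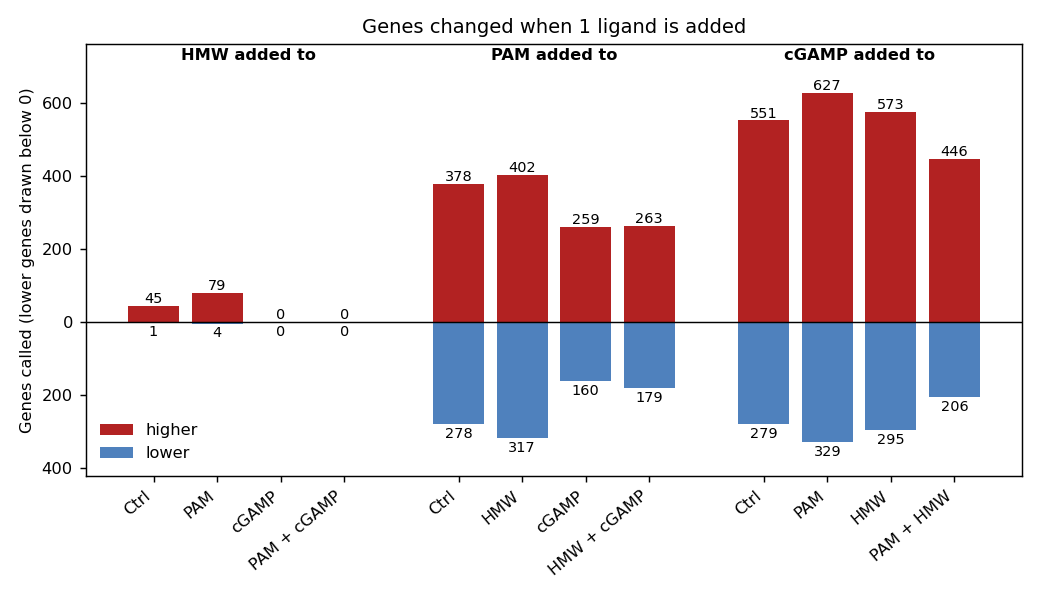
Number of genes called higher (red bars, above 0) and lower (blue bars, below 0) at each step that adds 1 ligand, for the 12 steps from Ctrl to the triplet, grouped by the ligand added. The step that adds HMW to PAM + cGAMP has 0 genes on either side, against 446 and 206 for cGAMP added to PAM + HMW.

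Without a fold threshold HMW added to PAM + cGAMP again changed 0 genes, with 229 genes at an unadjusted p under 0.05 in edgeR, 120 higher and 109 lower, and a smallest adjusted p of 0.309. DESeq2 called 0 genes as well, with 165 at an unadjusted p under 0.05. The smallest p belonged to Plek, which encodes pleckstrin, a protein kinase C substrate of blood cells, and Mmp12, which encodes macrophage elastase; both were chosen after their values were seen. Plek had a mean of 2212.5 ± 192 CPM (SD, n = 3) in PAM + cGAMP and 2876 ± 165 in the triplet, a log2 fold change of 0.37 ± 0.10 (SE) with an edgeR adjusted p of 0.309. Mmp12 had 4132 ± 318 CPM in the pair and 5878 ± 1162 in the triplet, a log2 fold change of 0.51 ± 0.13 (SE) with an edgeR adjusted p of 0.309. A p that misses the threshold does not show that a gene did not differ, so the interval matters. The 95% interval of the HMW effect lay within a log2 fold change of 1 in either direction for 1988 of 4720 genes (42.1%). Among the 2820 genes that averaged 50 CPM or more in the triplet or the pair it did so for 1936 (68.7%), and the median SE there was 0.30. For the remaining genes the interval reached a change of at least that size.

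Interferon-response genes rose with cGAMP. Of 15 listed interferon-response genes, 14 rose when cGAMP was added to PAM + HMW, 0 changed when HMW was added to PAM + cGAMP and 0 changed when PAM was added to HMW + cGAMP. Their median log2 fold changes were 2.23, 0.04 and 0.27, against -0.03, 0.01 and 0.00 over all tested genes. Of all tested genes 9.45% rose with cGAMP, 0.0% changed with HMW, and 5.57% rose and 3.79% fell with PAM. The 0 for HMW is thus also the share of all genes and is not particular to this list. Zbp1, a sensor of Z-form nucleic acids and the member that did not pass for cGAMP, had a log2 fold change of 0.97 (edgeR adjusted p 2.5e-05), just under the fold threshold. The lists used here were compiled with earlier results of these data known.

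Ifnb1, which encodes interferon beta itself, was at 7.02, 13.4 and 0 CPM in PAM + HMW. In PAM + cGAMP it was at 318, 219 and 260 CPM, in HMW + cGAMP at 150, 207 and 158, and in the triplet at 189, 254 and 354. The pair without cGAMP was far below the other groups, while the triplet libraries overlapped those of both pairs with cGAMP. Adding cGAMP to PAM + HMW raised Ifnb1 by a log2 fold change of 5.31 ± 0.47 (SE), with an edgeR adjusted p of 1.5e-21, the largest rise of that comparison by the rule for named genes. For HMW the log2 fold change was 0.06 ± 0.25 and for PAM 0.64 ± 0.25 (edgeR adjusted p 0.067).

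Ifit1, an interferon-induced protein that binds foreign RNA, was at 1425, 1579 and 1128 CPM in PAM + HMW and at 6640, 5930 and 6653 in the triplet. It was at 6653, 7957 and 7273 CPM in PAM + cGAMP and at 5098, 5190 and 5511 in HMW + cGAMP. All 3 groups with cGAMP lay above PAM + HMW, and the triplet lay between the other pairs, touching the lower end of PAM + cGAMP. The cGAMP step was 2.23 ± 0.14 (SE) on the log2 scale with an edgeR adjusted p of 3.9e-35. The HMW step was -0.19 ± 0.13 and the PAM step 0.28 ± 0.13, and neither passed.

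Cxcl10, an interferon-induced chemokine that draws T cells, was at 1552, 2187 and 1519 CPM in PAM + HMW and at 14002, 13939 and 15248 in the triplet. It was at 12671, 14170 and 14620 CPM in PAM + cGAMP and at 11925, 10991 and 11636 in HMW + cGAMP. The triplet overlapped PAM + cGAMP and lay above every HMW + cGAMP library. Its log2 fold change was 3.04 ± 0.18 (SE) for cGAMP (edgeR adjusted p 1.3e-38), 0.06 ± 0.16 for HMW and 0.32 ± 0.16 for PAM. Other large cGAMP rises in the list were Oasl1 at 3.39, Cmpk2 at 3.20 and Rsad2, which encodes the antiviral enzyme viperin, at 2.88.

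The promoters of Ifit1 and Cxcl10 are shown because these genes carry the cGAMP and HMW results that follow. Each window holds the 250 bases before the RefSeq start on build GRCm38.p6, read 5′ to 3′ on the gene's strand, chr19:34640639-34640888 on the plus strand for Ifit1 and chr5:92348890-92349139 on the minus strand for Cxcl10. Capitals mark matches on either strand to 2 motifs. The first, like the interferon-stimulated response element, is GAAA, any 2 bases and GAAA, and the second, like a kappaB site, is GGGA, any base, TT, any base and CC.
Ifit1: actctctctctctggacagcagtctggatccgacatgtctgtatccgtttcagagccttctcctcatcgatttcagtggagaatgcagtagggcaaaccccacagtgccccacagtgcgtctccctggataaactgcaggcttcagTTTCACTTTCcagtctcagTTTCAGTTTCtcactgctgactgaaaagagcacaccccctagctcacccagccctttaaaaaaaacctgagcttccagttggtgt
Cxcl10: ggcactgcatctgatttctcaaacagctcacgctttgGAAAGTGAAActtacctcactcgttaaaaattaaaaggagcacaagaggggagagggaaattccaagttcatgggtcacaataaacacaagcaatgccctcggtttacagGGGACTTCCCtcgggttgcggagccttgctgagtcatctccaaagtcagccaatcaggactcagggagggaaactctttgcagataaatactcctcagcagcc
The Ifit1 window holds TTTCACTTTC 104 bases and TTTCAGTTTC 85 bases before the start, each a reverse-strand match to the first motif. The Cxcl10 window holds GAAAGTGAAA at 213 bases and GGGACTTCCC at 103 bases before the start, and the matches do not overlap. The first motif stood in 3.46% of all 27025 windows, in 4.46% of the windows of tested genes and in 11.8% (41 of 348) of those of genes raised by cGAMP added to PAM + HMW. It stood in 4.22% (7 of 166) of those of genes lowered by cGAMP, and in 4.55% (9 of 198) and 6.57% (9 of 137) of the windows of genes raised and lowered by PAM added to HMW + cGAMP. A match is a description, not a site or a cause.

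**Figure D2:**
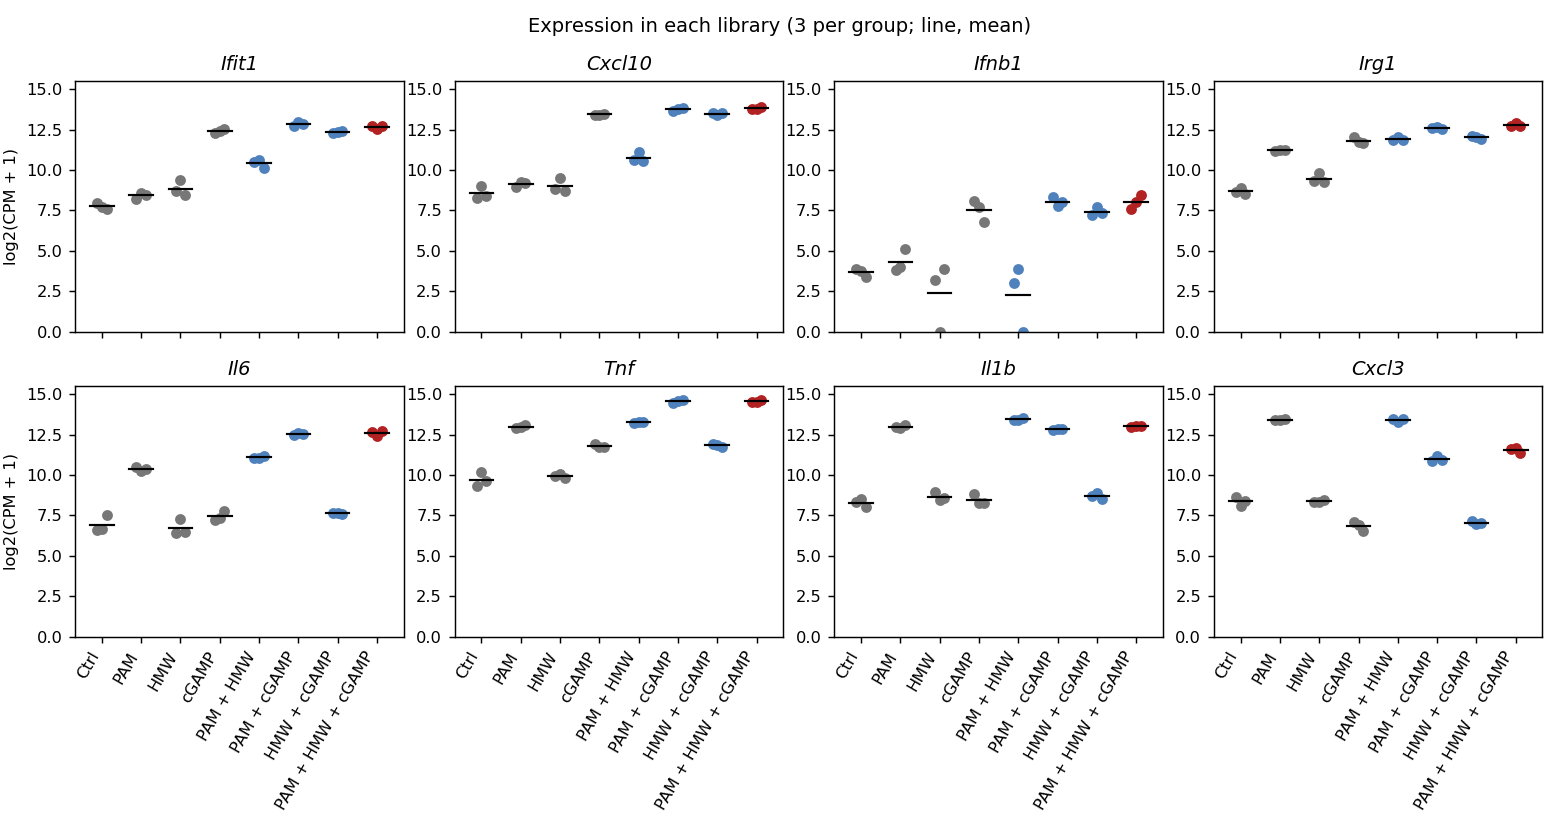
Levels of 8 genes as log2(CPM + 1) in each library of the 8 groups, 1 point per library, with a line at the group mean, single ligands and Ctrl in grey, pairs in blue and the triplet in red. Ifit1, Cxcl10 and Ifnb1 are high in every group with cGAMP, while Il6, Il1b and Cxcl3 are high in every group with PAM, and PAM + cGAMP and the triplet stand close together in each panel.

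The inflammatory genes followed PAM. Of 13 tested members of the inflammatory list, 11 rose and 0 fell when PAM was added to HMW + cGAMP, with a median log2 fold change of 3.47. When cGAMP was added to PAM + HMW, 5 of the 13 rose and 0 fell, with a median of 0.64, and HMW added to PAM + cGAMP changed 0, with a median of 0.13. Over all tested genes 5.57% rose with PAM, 9.45% rose with cGAMP and 0.0% changed with HMW, with medians of 0.00, -0.03 and 0.01. The 0 falls with PAM and with cGAMP are near the 3.79% and 4.36% of all tested genes that fell. The members that did not pass for PAM were Nfkbia, which encodes an inhibitor of NF-kappaB and had 0.94, and Il10, an anti-inflammatory cytokine measured by 11 counts in the triplet and 2 in the pair, a 4.66-fold ratio (counting interval 1.02 to 43.3).

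Il6, a pro-inflammatory cytokine, was at 2155, 2155.5 and 2259 CPM in PAM + HMW and at 6473, 5380 and 6598 in the triplet. It was at 5638, 6145 and 5906 CPM in PAM + cGAMP and at 202, 198 and 188 in HMW + cGAMP. The pair without PAM was lowest by far, and the triplet libraries surrounded those of PAM + cGAMP. Adding PAM to HMW + cGAMP raised Il6 by 4.97 ± 0.17 (SE) on the log2 scale, with an edgeR adjusted p of 4e-72. Adding cGAMP to PAM + HMW raised it by 1.49 ± 0.13 (edgeR adjusted p 9.1e-22), and adding HMW to PAM + cGAMP gave 0.06 ± 0.13. Tnf, an early inflammatory cytokine, was also lowest in HMW + cGAMP and next in PAM + HMW, with 9519, 9888 and 9705 CPM in PAM + HMW, 22166, 24499 and 25926 in PAM + cGAMP, 3823, 3746 and 3336 in HMW + cGAMP, and 23594, 23015 and 25527 in the triplet. Its log2 fold change was 2.73 ± 0.16 (SE) for PAM, 1.31 ± 0.15 for cGAMP and -0.01 ± 0.15 for HMW, and the PAM and cGAMP steps passed.

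Il1b and Cxcl3 had a positive PAM step and a negative cGAMP step. Il1b, which encodes interleukin 1 beta, was at 10818, 10957 and 11639 CPM in PAM + HMW and at 8113, 8263 and 8310 in the triplet. In PAM + cGAMP it was at 6962, 7307 and 7402 CPM and in HMW + cGAMP at 423, 474 and 371. The triplet lay above both pairs with cGAMP and below PAM + HMW, without overlap. Adding PAM to HMW + cGAMP raised Il1b by 4.27 ± 0.14 (SE, log2; edgeR adjusted p 5.4e-76). The cGAMP step was -0.44 ± 0.11 (edgeR adjusted p 0.00099), under the fold threshold, and the HMW step 0.19 ± 0.11, which did not pass. The PAM by cGAMP interaction with HMW present was -0.56 for Il1b (edgeR adjusted p 0.12) and did not pass. For Il1b it passed with DESeq2 (-0.58, adjusted p 0.048), on the 8 groups alone (-0.61) and without replicate 1 of HMW (-0.73).

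Cxcl3, a chemokine for neutrophils, was at 11345, 10111 and 11368 CPM in PAM + HMW and at 3147, 3229 and 2611 in the triplet. It was at 1862, 2290 and 1975 CPM in PAM + cGAMP and at 143, 125 and 128 in HMW + cGAMP. The 4 groups did not overlap in any library, and the triplet stood above PAM + cGAMP and below PAM + HMW. Adding cGAMP lowered Cxcl3 by -1.87 ± 0.18 (SE) on the log2 scale, with an edgeR adjusted p of 6.3e-18, and adding PAM raised it by 4.50 ± 0.27. The HMW step was 0.55 ± 0.19 with an edgeR adjusted p of 0.82, so the gap between the triplet and PAM + cGAMP did not pass, nor did the PAM by cGAMP interaction of Cxcl3 (-0.55, edgeR adjusted p 0.64). Cxcl1, another neutrophil chemokine, had 5.33 ± 0.29 for PAM, the largest PAM rise by the rule for named genes, and -0.42 ± 0.16 for cGAMP, under the fold threshold.

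Windows of Il6 and Cxcl3 are shown because both genes had large PAM steps and opposite cGAMP steps. They are chr5:30012864-30013113 and chr5:90785851-90786100, both on the plus strand of GRCm38.p6 and both from RefSeq, and capitals mark the kappaB-like motif described above.
Il6: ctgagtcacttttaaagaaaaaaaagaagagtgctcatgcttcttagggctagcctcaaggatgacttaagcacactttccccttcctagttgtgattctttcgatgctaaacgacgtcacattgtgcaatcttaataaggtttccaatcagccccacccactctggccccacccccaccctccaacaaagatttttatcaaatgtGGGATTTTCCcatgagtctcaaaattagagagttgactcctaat
Cxcl3: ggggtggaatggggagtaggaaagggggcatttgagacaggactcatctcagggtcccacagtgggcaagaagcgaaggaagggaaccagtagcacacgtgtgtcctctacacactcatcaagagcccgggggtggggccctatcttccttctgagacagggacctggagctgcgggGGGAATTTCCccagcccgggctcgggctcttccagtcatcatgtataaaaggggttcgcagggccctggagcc
The Il6 match is GGGATTTTCC at 44 bases before the start and the Cxcl3 match GGGAATTTCC at 73 bases. That motif stood in 1.13% of all 27025 windows, in 1.68% of the windows of tested genes, in 5.05% (10 of 198) of those of genes raised by PAM added to HMW + cGAMP and in 3.65% (5 of 137) of those it lowered. For cGAMP added to PAM + HMW it stood in 2.30% (8 of 348) of the windows of raised and 3.01% (5 of 166) of those of lowered genes.

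Other cytokine genes were called with PAM and with cGAMP. Of 16 tested cytokine genes, 10 rose and 1 fell with PAM, 9 rose and 0 fell with cGAMP, and 0 changed with HMW. Over all tested genes 5.57% rose and 3.79% fell with PAM, and 9.45% rose and 4.36% fell with cGAMP. The 1 fall with PAM is thus near the share of all genes. Il12a, which encodes a subunit of interleukin 12, was at 19.5, 4.31 and 12.2 CPM in HMW + cGAMP and at 272, 337 and 339 in the triplet, beside 190, 224 and 247 in PAM + HMW and 274, 390 and 314 in PAM + cGAMP. The pair without PAM stood apart, and the PAM step was 4.77 ± 0.37 (SE, log2; edgeR adjusted p 5.9e-26). Il12b, the other subunit, had a PAM step of 3.47, and for cGAMP its log2 fold change of 1.02 did not pass (edgeR adjusted p 0.099). The Il12b cGAMP step passed without the filter on low counts (1.05), on the libraries of the 8 groups alone (1.06) and with libraries thinned to equal totals (2.62). Il15, which sustains T and NK cells, and Il27, which acts on T cells, rose with cGAMP by 2.49 and 3.39 and had 0.45 and 1.11 for PAM, which did not pass. Tnfsf10, the death ligand TRAIL, rose with cGAMP by 2.10 and fell with PAM by -1.16. Il10 had 11 counts in the triplet and 0 in PAM + HMW, which is at least 3.67-fold higher against a floor of 3 counts over the group; the call was lost without replicate 3 of the triplet (edgeR adjusted p 0.10) and when libraries were thinned to equal totals (0.45).

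Chemokines changed with cGAMP and with PAM. Of 17 tested, 9 rose and 1 fell with cGAMP (median log2 fold change 1.27), 12 rose and 3 fell with PAM (1.45), and 0 changed with HMW (0.08). Over all tested genes 9.45% rose and 4.36% fell with cGAMP, and 5.57% rose and 3.79% fell with PAM, so the 1 fall with cGAMP is near the share of all genes. Ccl2, Ccl7, Ccl3, Ccl4 and Ccl5, which attract monocytes and T cells, rose with both. Ccl4 was at 4612, 4539 and 4570.5 CPM in PAM + HMW, at 19916, 23057 and 24525 in PAM + cGAMP, at 8642, 9000 and 8403 in HMW + cGAMP and at 22032, 22725 and 26625 in the triplet. Both pairs that lack PAM or cGAMP lay below every triplet library, with log2 fold changes of 2.38 ± 0.16 (SE) for cGAMP and 1.45 ± 0.15 for PAM. Ccl2 had 3.72 and 1.52 on the same scale, Ccl5 1.39 and 1.05, and Ccl3 1.27 and 2.76.

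Cxcl9, Cxcl11 and Ccl12 instead rose with cGAMP and fell with PAM; Cxcl9 and Cxcl11 are ligands of the T cell receptor CXCR3. Cxcl9 was at 0, 31.3 and 28.2 CPM in PAM + HMW, at 326, 321 and 226 in PAM + cGAMP, at 748, 651 and 638 in HMW + cGAMP and at 189, 119 and 195 in the triplet. HMW + cGAMP was highest and the triplet lay between the pairs with PAM, without overlap. The log2 fold change was 2.85 ± 0.38 (SE) for cGAMP, -1.99 ± 0.21 for PAM (edgeR adjusted p 8e-16) and -0.76 ± 0.25 for HMW, which did not pass (edgeR adjusted p 0.82). Cxcl11 had 46 counts in the triplet and 1 in PAM + HMW, a 46.0-fold ratio (counting interval 7.86 to 1857), and its PAM step was -1.31.

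**Figure D3:**
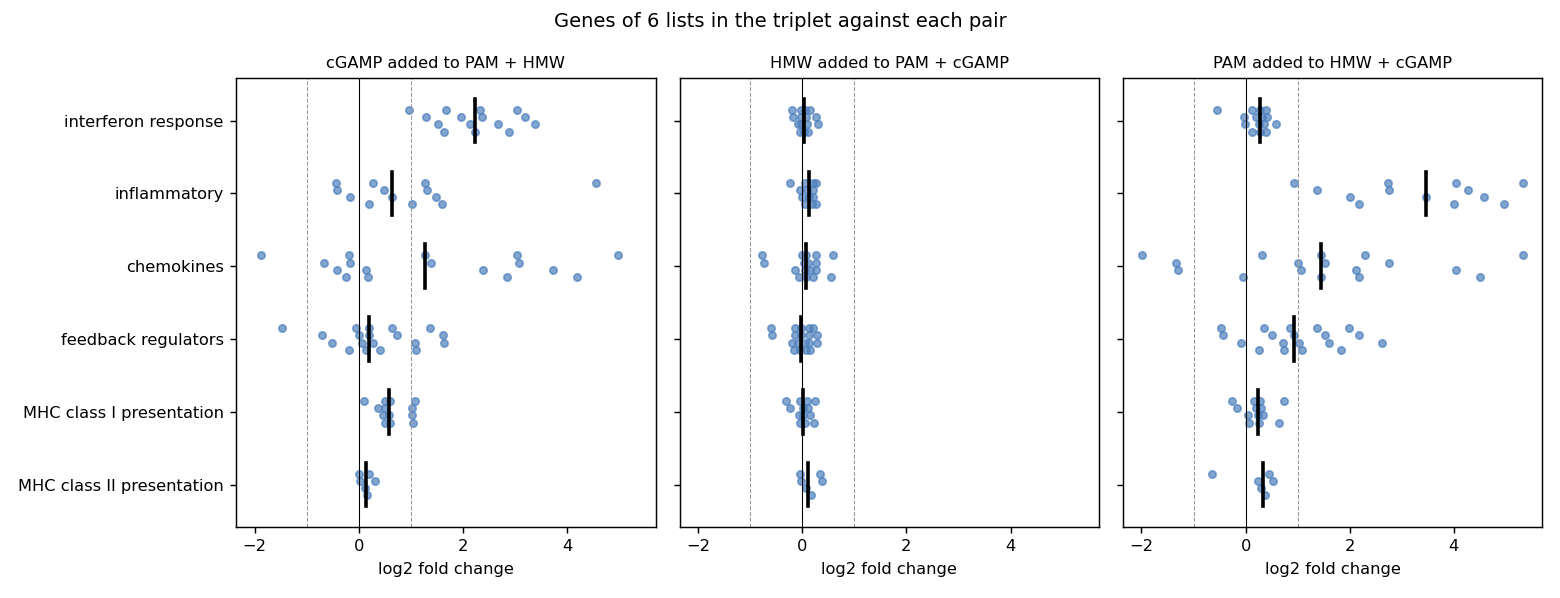
Log2 fold changes of the members of 6 gene lists in the 3 comparisons, 1 point per gene, with a thick line at the list median and dashed lines at a log2 fold change of 1 in either direction. The interferon list stands high for cGAMP with a median of 2.23, the inflammatory list stands high for PAM with 3.47, and the lists lie near 0 for HMW.

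Among the largest rises with cGAMP by the rule for named genes were genes outside the lists or with few counts in the pair. Klf4, a transcription factor of monocyte development, had 54 counts in the triplet and 1 in PAM + HMW, a 54.0-fold ratio (counting interval 9.29 to 2173). Intu had 67 against 2 counts, a ratio of 33.5 (8.92 to 282), Klf8 33 against 1, a ratio of 33.0 (5.53 to 1343), and Mid1 44 against 2, a ratio of 22.0 (5.74 to 187). Ccne1, which encodes cyclin E1, was at 7.02, 8.94 and 7.05 CPM in PAM + HMW and at 178, 197 and 134 in the triplet, a log2 fold change of 4.31 ± 0.55 (SE). It was also high in PAM + cGAMP, at 194, 144 and 137 CPM. By the rule for named genes, at 50 CPM or more and with groups that did not overlap, the falls with cGAMP were led by Dok2, an adaptor that restrains receptor signalling, which was at 105, 80.5 and 183 CPM in PAM + HMW and at 11.1, 0 and 21.7 in the triplet (log2 fold change -3.31 ± 0.51, SE). Tbc1d2b had -2.98, the immunoreceptor Nfam1 -2.97, Abi3 -2.93, the TGF-beta receptor gene Tgfbr1 -2.92 and the kinase gene Stk10 -2.79. With libraries thinned to equal totals the calls of Cxcl11, Ccne1, Nfam1, Abi3, Tgfbr1 and Stk10 were lost, with edgeR adjusted p of 0.064 (Ccne1) to 0.34. Their log2 fold changes were then 3.96, 2.36, -2.90, -2.27, -1.96 and -4.03, in the same direction as before.

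With PAM the largest rises by that rule, after Cxcl1 and Il6, were U90926 at 4.83 and Il12a, Ptgs2 and Cxcl3. Ptgs2, the inducible cyclooxygenase, was at 407, 420 and 395 CPM in PAM + HMW, at 1218, 909 and 1080 in PAM + cGAMP, at 65.0, 47.4 and 42.5 in HMW + cGAMP and at 1284, 1130 and 1282 in the triplet. Both pairs with PAM stood above the pair without it, and the PAM and cGAMP steps were 4.58 ± 0.26 (SE) and 1.60 ± 0.18. 1600029D21Rik had 46 counts in the triplet and 1 in HMW + cGAMP, a ratio of 39.0 (6.65 to 1572), and Zfp811 34 against 1, a ratio of 28.8 (4.83 to 1171). The falls by that rule were Slc37a2 at -3.48, Rab19 at -3.41, the Ras regulator Rasa3 at -3.13, the amino acid transporter gene Slc43a2 at -3.07, the sphingosine phosphate receptor gene S1pr2 at -3.04 and Cd93 at -2.94. Slc37a2, a sugar phosphate transporter, was at 71.5, 77.6 and 79.0 CPM in HMW + cGAMP and at 0, 10.4 and 7.22 in the triplet. With libraries thinned to equal totals the PAM calls of 1600029D21Rik, Zfp811, Slc37a2, Rab19, Rasa3, S1pr2 and Cd93 were lost, with edgeR adjusted p of 0.064 to 0.25.

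Feedback regulators responded to PAM more than to cGAMP in their counts. Of 19 tested, 9 rose with PAM and 0 fell, 5 rose and 1 fell with cGAMP, and 0 changed with HMW. Over all tested genes 5.57% rose with PAM, and 9.45% rose and 4.36% fell with cGAMP, so the 1 fall of 19 is near the share of all genes. The difference between those counts was not tested. Zc3h12a, an RNase that degrades cytokine messages, had a PAM step of 2.61, Nfkbiz, a nuclear cofactor of NF-kappaB, 2.18, and Socs3, an inhibitor of cytokine receptor signalling, 1.98, while their cGAMP steps were -0.20, 0.20 and 0.07. Irak3, an inhibitor of Toll-like receptor signalling, rose with PAM by 1.60 and fell with cGAMP by -1.48. Atf3, a stress-induced repressor, and Usp18, which dampens interferon receptor signalling, rose with cGAMP by 1.36 and 1.63.

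Costimulatory and class I presentation genes included rises with cGAMP. Of 11 tested costimulation and maturation genes 4 rose with cGAMP and 4 with PAM, beside 9.45% and 5.57% of all tested genes. Cd86, a costimulatory ligand for T cells, had 2.85 for cGAMP and 0.31 for PAM, and Cd40, the receptor for T cell help, had 1.37 and 1.38. Tap1, a peptide transporter, Psmb9, Nlrc5 and H2-T23 were the 4 of 13 class I presentation genes that rose with cGAMP, by 1.07, 1.04, 1.02 and 1.03. For PAM 0 of the 13 passed in edgeR with the fold threshold. The 6 tested class II presentation genes gave 0 calls in each comparison in edgeR, with median log2 fold changes of 0.13 for cGAMP, 0.11 for HMW and 0.33 for PAM.

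Of 13 tested genes of arginine, itaconate and oxidative stress metabolism 1 rose and 4 fell with cGAMP, with a median log2 fold change of 0.06 and 7 of 13 above 0, beside 9.45% and 4.36% of all tested genes. Hmox1, which encodes heme oxygenase 1, was lowered by -1.26, Gclm, of glutathione synthesis, by -1.28, Srxn1 by -1.13 and Txnrd1 by -1.04, and these are the 4 falls. Slc7a11, a cystine transporter, was at -0.98 (edgeR adjusted p 5.3e-09), just under the fold threshold, while Prdx1, a peroxidase, was at 0.42 and Sqstm1 at 0.06. Hmox1 was at 646, 559 and 581 CPM in PAM + HMW and at 245, 327 and 184 in the triplet, without overlap. Nos2, the inducible nitric oxide synthase, was at 0, 13.4 and 3.52 CPM in PAM + HMW, at 0, 12.9 and 12.2 in HMW + cGAMP, at 52.9, 61.5 and 75.2 in PAM + cGAMP and at 77.9, 72.6 and 123 in the triplet. It was near 0 without PAM or without cGAMP, and rose by 3.79 ± 0.59 (SE, log2) with cGAMP and 3.28 ± 0.58 with PAM, a call lost when libraries were thinned to equal totals (edgeR adjusted p 0.065). Irg1, the deposited symbol of the itaconate-forming enzyme now called Acod1, was at 3693, 4235 and 3732 CPM in PAM + HMW, 6115, 6535 and 5994 in PAM + cGAMP, 4396, 4155 and 3907 in HMW + cGAMP and 6829, 7511 and 6772 in the triplet. The triplet was above every library of all 3 pairs, by log2 fold changes of 0.86 ± 0.10 (SE), 0.18 ± 0.10 and 0.76 ± 0.10 for cGAMP, HMW and PAM. The cGAMP and PAM steps passed the adjusted p and missed the fold threshold, and the HMW step passed neither. Of 16 glycolysis genes 2 rose with cGAMP, the hexokinase gene Hk1 by 1.84 and Pfkp by 1.18, and 0 with PAM or HMW in edgeR. The list median for cGAMP was -0.31, with 4 of 16 above 0, and 2 of 16 is near the 9.45% of all tested genes that rose. Marco, a scavenger receptor, rose with PAM by 2.76 and fell with cGAMP by -1.21.

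Receptor and adaptor genes were called mainly as rises. Of 17 tested, 5 rose with cGAMP and 4 rose and 1 fell with PAM, beside the 9.45%, 5.57% and 3.79% over all tested genes. Ifih1 and Dhx58, RNA sensors of the RIG-I family, rose with cGAMP by 2.50 and 1.05, and Tlr7 by 1.27. The surface receptors Tlr2 and Tlr1 and the co-receptor Cd14 rose with PAM by 1.19, 1.43 and 2.57. Tmem173, the deposited symbol of STING, had -1.91 for PAM (edgeR adjusted p 0.0044), with a mean of 74.2 CPM in HMW + cGAMP and 19.1 in the triplet.

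No gene passed against all 3 pairs at once. With the log2 fold change of at least 1 required against each pair and the largest of the 3 p-values adjusted over all genes, 0 genes (0.0%) lay above and 0 (0.0%) below all 3 pairs in edgeR, and 0 each with DESeq2. At an unadjusted p under 0.05 the counts were 17 above and 18 below. This follows the HMW step, since any such gene must also pass there.

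HMW did change genes where cGAMP was absent. Against Ctrl it raised 45 genes (0.953% of those tested) and lowered 1 (0.0212%), and added to PAM it raised 79 (1.67%) and lowered 4 (0.0847%). Without replicate 2 of HMW the 45 were 20, while the 79 ranged from 65 to 83 with any 1 library left out. Added to cGAMP it changed 0 genes (0.0%) in edgeR, with 208 at an unadjusted p under 0.05. Of the 79 genes raised when HMW was added to PAM, 13 belong to the interferon list of 15, 5 to the receptor and adaptor list and 3 to the chemokine list, and Cxcl10, Irf7 and Usp18 are each in another list as well. The 79 also hold Bst2 and Tcf4, the 2 tested members of the plasmacytoid dendritic cell list, at 1.26 and 1.49 for HMW added to PAM; Siglech and Klk1 of that list were at 0 in the 12 libraries. Those steps and the HMW step onto PAM + cGAMP share no library, so the 79 genes can be followed there.

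The 79 genes had a median log2 fold change of 1.43 when HMW was added to PAM, which chose them, and of 1.11 when it was given alone against Ctrl, with 73 of 79 above 0. When HMW was added to cGAMP their median was 0.07, with 53 above 0. When HMW was added to PAM + cGAMP it was 0.07, with 51 of 79 above 0, a range of -0.73 to 0.70 and 0 called in edgeR, against a median of 0.01 and 51.7% above 0 over all tested genes. The 45 genes raised by HMW against Ctrl had a median of 0.04 when HMW was added to PAM + cGAMP, with 30 above 0. Across all 4720 genes, which are not independent replicates, Pearson's r between the log2 effect of HMW on PAM and that of HMW on PAM + cGAMP was 0.091, and 0.0069 for HMW against Ctrl. The response element motif stood in 36.5% (23 of 63) of the windows of the 79 genes, beside the 4.46% of tested genes given above.

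**Figure D4:**
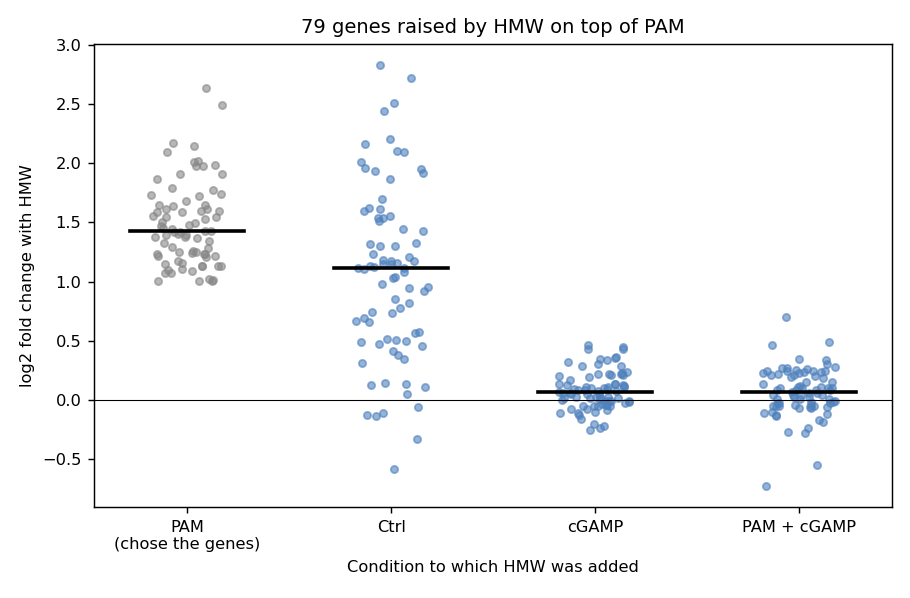
Log2 fold changes of the 79 genes raised when HMW was added to PAM, at each of the 4 steps that add HMW, 1 point per gene with a line at the median. The genes lie above 0 on PAM, where they were chosen, and for Ctrl their median is 1.11, whereas on cGAMP and on PAM + cGAMP the medians are 0.07.

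Ifit1 and Cxcl10 are members of that set. Ifit1 was at 295, 382 and 356 CPM in PAM against 1425, 1579 and 1128 in PAM + HMW, a log2 fold change of 1.98 ± 0.17 (SE) for HMW. Without PAM it was at 249, 212 and 192 CPM in Ctrl and 416, 677 and 349 in HMW, and with cGAMP alone at 5071, 5440 and 5825. Every library with cGAMP was above every library without it, and HMW moved Ifit1 beyond the spread in Ctrl and PAM cells. Cxcl10 was at 486, 598 and 589 CPM in PAM and at 1552, 2187 and 1519 in PAM + HMW, with a log2 fold change of 1.65 ± 0.20 (SE). With cGAMP alone it was at 10903, 11026 and 11373 CPM, again above every library without cGAMP. Ccl4 and Ccl5 rose by 1.22 and 1.16 with HMW added to PAM, and had 0.08 and 0.04 with HMW added to PAM + cGAMP.

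The difference between those HMW effects was tested directly, as the effect of HMW on PAM + cGAMP minus its effect on PAM, which equals the HMW by cGAMP interaction with PAM present. It was negative for 83 genes (1.76%) and positive for 1 (0.0212%) at an adjusted p under 0.05 in edgeR, with no fold threshold. Without replicate 2 of PAM + HMW the total of 84 was 53. Of the 15 interferon genes 12 were negative, with a list median of -1.43 against 0.00 over all genes, and of the 17 receptor and adaptor genes 5 were. Ifit1 had -2.17 ± 0.22 (SE, log2; edgeR adjusted p 7.7e-16), Oasl1 -1.93, Cxcl10 -1.59 ± 0.26 (edgeR adjusted p 1.8e-06), Ddx58, which encodes RIG-I, -1.66, and Tap1 -1.31. The inflammatory list had 2 negative members of 13, Il6 at -0.66 (edgeR adjusted p 0.036) and Il1a at -0.76. The Il6 call was lost in 8 of the 12 fits that left out 1 library, with an edgeR adjusted p of up to 0.19, and also with library size alone (0.057) and when thinned to equal totals (0.10). Irg1, at -0.54 (edgeR adjusted p 0.028), lost the call in 7 of those 12 fits, with library size alone, without the filter on low counts (0.21) and when thinned (0.56).

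By the rule for named genes the most negative were Tlr6, Pim1 and Dennd3, and the 1 positive was Isyna1, which encodes inositol phosphate synthase. Pim1, a kinase induced by cytokines, was at 19.7, 10.1 and 16.7 CPM in PAM, 63.2, 80.5 and 45.8 in PAM + HMW, 229, 239 and 144 in PAM + cGAMP and 133, 171 and 116 in the triplet. PAM + HMW thus stood above PAM and, with cGAMP present, the triplet overlapped the lower end of PAM + cGAMP, for an interaction of -2.54 ± 0.55 (SE, log2; edgeR adjusted p 0.00077). With libraries thinned to equal totals the Pim1 value was 0.053 and not called. Tlr6, a partner of Tlr2, had -3.23 ± 0.91 (SE; edgeR adjusted p 0.033), with 13.1, 5.03 and 0 CPM in PAM. Dennd3 had -2.44 and Isyna1 2.26. The calls of Tlr6, Dennd3 and Isyna1 were lost when single libraries were left out, in 7, 7 and 10 of 12 fits. All 3 were also lost without the filter on low counts and with libraries thinned to equal totals, and Isyna1 on the 8 groups alone. When thinned, Tlr6 was at -3.57, Isyna1 at 2.60 and Dennd3 at -0.85 (edgeR adjusted p 0.68, 0.79 and 0.99).

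The PAM by cGAMP interaction with HMW present is the effect of cGAMP on PAM + HMW minus its effect on HMW. It was negative for 119 genes (2.52%) and positive for 45 (0.953%) in edgeR at an adjusted p under 0.05, and the total of 164 was 103 without replicate 3 of HMW. Socs1, an interferon-induced inhibitor of cytokine signalling, shows the negative form. It was at 49.9, 31.4 and 23.2 CPM in HMW, 126, 157 and 211 in PAM + HMW, 254, 237 and 176 in HMW + cGAMP and 189, 171 and 144 in the triplet. Each of PAM and cGAMP placed Socs1 above HMW alone and the triplet overlapped both pairs, for an interaction of -2.81 ± 0.41 (SE, log2; edgeR adjusted p 4.6e-08). Slc7a2, an arginine transporter, had -2.11 ± 0.19 (edgeR adjusted p 1.7e-19) and Irg1 -1.67 ± 0.16 (edgeR adjusted p 6.8e-18). Of the lists, 8 of 15 interferon genes were negative (median -0.88), including Ifit1 at -1.20 and Cxcl10 at -1.37, with 4 of 11 costimulation genes, among them Cd40 at -1.51 and the adhesion molecule gene Icam1 at -1.49.

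By the rule for named genes, at 50 CPM or more in any of these groups, Pik3r6 and Abtb2 were also among the 3 most negative, at -3.53 and -3.08, and Klf4 and Cerk were among the 3 most positive, at 4.22 and 3.22. Klf4 was at 24.9, 13.5 and 18.6 CPM in HMW, 0, 0 and 3.52 in PAM + HMW, 39.0, 34.5 and 36.5 in HMW + cGAMP and 106, 67.4 and 79.5 in the triplet. Of these 4 groups it was lowest in PAM + HMW and highest in the triplet. The Klf4, Cerk, Pik3r6 and Abtb2 calls were lost with libraries thinned to equal totals, and the Cerk call also without replicate 1 of the triplet. Atf3 was positive at 1.23 ± 0.21 (SE, log2; edgeR adjusted p 7e-06), with 945, 1063 and 1015 CPM in the triplet against 386, 456 and 338 in PAM + HMW, while HMW had 499, 641 and 497 and HMW + cGAMP 611, 685 and 504. In Atf3 the cGAMP step was thus visible with PAM present, while HMW and HMW + cGAMP overlapped.

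The PAM by HMW interaction with cGAMP present and the 3-way interaction gave 0 genes each (0.0% and 0.0%) in edgeR at an adjusted p under 0.05. At an unadjusted p under 0.05 there were 215 and 237 genes, and DESeq2 called 0 for both. The smallest adjusted p for the 3-way interaction was 0.19, held by Ccl4 at -1.39 and Ccl5 at -1.15. Fitted on the libraries of the 8 groups alone, 4 genes passed the 3-way test in edgeR. They were Ccl4 at -1.41 (adjusted p 3.3e-07), Ccl5 at -1.17 (9.3e-07), Cxcl10 at -1.16 (0.023) and Plin2 at -1.08 (0.041). For PAM by HMW with cGAMP 1 gene passed there, Cxcl9 at -1.26 (edgeR adjusted p 0.021). The reported fit and DESeq2 both estimated the spread over all 64 groups, so the 3-way result depends on which libraries are fitted. With the replicate number as a block Ccl4 and Ccl5 passed the 3-way test (edgeR adjusted p 0.042).

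The effect of a ligand alone could be set beside its effect on the pair, since these contrasts share no library. cGAMP against Ctrl raised 551 genes (11.7%) and lowered 279 (5.91%), and 279 of its rises were also raised by cGAMP added to PAM + HMW, which is 50.6% of the 551 and 62.6% of the 446. Of the falls 60 were shared, 21.5% of 279 and 29.1% of 206. PAM against Ctrl raised 378 genes (8.01%) and lowered 278 (5.89%), and 149 of the rises were also raised by PAM added to HMW + cGAMP, 39.4% of 378 and 56.7% of 263. Of the falls 82 were shared, 29.5% of 278 and 45.8% of 179. Pearson's r across the 4720 genes was 0.61 for cGAMP and 0.53 for PAM, as a description over genes.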

How the data were processed

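Bulk RNA was measured with unique molecular identifiers in 192 libraries, 3 for each of 64 groups. The authors deposited raw molecule counts, as whole numbers, for each gene symbol. Per the labels' protocols, barcoded cDNA from template-switching reverse transcription was pooled before library preparation. BWA 0.7.15 and mm10 are named in the submitters' processing notes, without their roles. Near-identical or overlapping genes may share reads, and the strand setting of the counting is not given in the sources used here.

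From the counts, all 64 groups were fitted in 1 model with edgeR 4.0.16 (R 4.3.3, limma 3.58.1) using TMM scaling, filterByExpr by group and the quasi-likelihood test, with 128 residual degrees of freedom and Benjamini-Hochberg adjustment over the 4720 tested of 23481 genes, which held 95.7% of the counts. Main comparisons needed an adjusted p under 0.05 and a log2 fold change of at least 1 in size, and interactions the adjusted p alone. The code was tested on simulated data. Named genes were the 8 largest rises and 6 largest falls per comparison with at least 50 CPM and groups that did not overlap, the 3 largest interactions of each sign, 10 genes by symbol, and members of 21 gene lists as examples; 1 gene named by this rule is not reported here. The comparisons, members and lists were chosen with earlier results of these data known. Each SE was back-calculated as the absolute log2 fold change over the square root of the quasi-likelihood F value. The 95% intervals of effects were built from it, and it is unstable where counts are near 0. Counting intervals are exact at 95% and cover counting error only. Alternatives were DESeq2 1.42.0, other scaling, no filter, fewer libraries, thinning to 46564 counts, a replicate block, no fold threshold and leaving out each library; those for HMW added to PAM and HMW against Ctrl were added after seeing the data.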

Additional observations from a re-analysis of the deposited data

Results flagged for a closer look

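Each result here is a difference between the effects of 1 ligand in 2 settings, tested as an interaction in edgeR at an adjusted p under 0.05. The effect of HMW with and without cGAMP, in the presence of PAM, differed negatively for 83 genes and positively for 1. By name these were, on the log2 scale, Tlr6 at -3.23, Pim1 at -2.54, Dennd3 at -2.44, Ifit1 at -2.17, Cxcl10 at -1.59, Il6 at -0.66 and Irg1 at -0.54, with Isyna1 positive at 2.26. The calls of Tlr6, Dennd3, Isyna1, Il6 and Irg1 were lost in 7, 7, 10, 8 and 7 of the 12 fits that left out 1 library. Those calls were also lost when libraries were thinned to equal totals, as was the Pim1 call, whose value changed sign.

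The effect of cGAMP with and without PAM, in the presence of HMW, differed negatively for 119 genes and positively for 45. By name these were Pik3r6 at -3.53, Abtb2 at -3.08, Socs1 at -2.81, Irg1 at -1.67, Cxcl10 at -1.37 and Ifit1 at -1.20, with Klf4 at 4.22 and Cerk at 3.22 on the positive side. The calls of Pik3r6, Abtb2, Klf4 and Cerk were lost with libraries thinned to equal totals. The Cerk call was also lost without replicate 1 of the triplet. The HMW by cGAMP and PAM by cGAMP interactions share the triplet and PAM + HMW libraries.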

How the results depend on the processing

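HMW added to PAM + cGAMP gave 0 genes under every alternative run, as did the counts above and below all 3 pairs. Thinning to equal totals, which leaves fewer counts, gave 232 changed genes for cGAMP added to PAM + HMW, 158 for PAM added to HMW + cGAMP, 18 and 34 for the HMW by cGAMP and PAM by cGAMP interactions, and 36 and 24 genes higher with HMW added to PAM and against Ctrl. Without a fold threshold cGAMP changed 1027 and PAM 705 genes. With 1 library left out the counts ranged from 559 to 634 for cGAMP, 358 to 391 for PAM, 53 to 78 and 103 to 177 for the same interactions, 65 to 83 for HMW added to PAM and 20 to 65 for HMW against Ctrl, and stayed at 0 for the others. The PAM by HMW interaction with cGAMP gave 1 gene on the 8 groups alone. The 3-way interaction gave 1 without the filter on low counts, 4 on the 8 groups alone and 2 with the replicate block. The cause was not tested. Same-numbered libraries did not deviate together (r -0.051 to 0.018), and the replicate block moved no other count by over 1.5 times. Among uncalled named genes whose reported value was smaller than its SE, 46 alternative values changed sign. The other changes of sign were, for HMW by cGAMP with PAM, Pim1 at 0.053, Il12b at 0.96 and Il10 at -0.52 when thinned, with Il10 between -0.23 (without replicate 3 of PAM) and 2.11 when 1 library was left out, and, for the 3-way interaction, Nos2 at 0.061 when thinned, with Nos2 between -2.33 and 0.81 (without replicate 3 of Ctrl) when 1 library was left out. Of these Pim1 was called in the reported fit. Of the alternative values of named called genes 735 kept the call, 74 lost it and 1 changed sign, and 9 values of uncalled results gained a call. These were 3 each for the Il12b cGAMP step and the Il1b PAM by cGAMP interaction, Il6 (1.88 when thinned) and Tnf (-0.62 on the 8 groups alone) in that interaction, and Cxcl10 in the 3-way interaction. Depth limits genes with few counts in 1 group, such as Il10, Klf4 and Cxcl11.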
